A study of Mus musculus with 2 samples.

Results

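The miRNA genes of the miR-26 and miR-101 families were measured in the lungs of newborn mice. They are Mir26a-1, Mir26a-2, Mir26b, Mir101a and Mir101b, chosen by their GENCODE symbols, with earlier results of these data known. All 5 were found among 1973 miRNA gene rows. The study is a microRNA-seq profile of RNA in a size range under 30 bases, with no second tissue, age, genotype or treatment. Its 1 group holds 2 libraries of B6NCrl mice, a substrain of C57BL/6N, at postnatal day 0. Replicate 1 was made from the 2 lungs of pup 1 and replicate 2 from those of pup 3, both of pregnancy 1 by the labels, although both carry the same donor record. Sex was not collected. Whole lung mixes many cell types, so more cells of a type and more RNA per cell cannot be told apart.

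A microRNA is cut from a hairpin precursor and guides a silencing complex to messenger RNAs through its seed, the bases near its 5′ end. Both families are known for repressing Ezh2, the enzyme of Polycomb repressive complex PRC2 that methylates a histone and keeps genes silent. This was shown for miR-101 in human prostate cancer cells and for miR-26a in mouse muscle precursor cells. In the mouse lung, Ezh2 is known for its part in forming the airway epithelium. The miR-26 genes lie in introns of the Ctdsp genes, which encode small phosphatases of the RNA polymerase II tail.

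The mature arms decide both the seed and whether a read can be assigned to a single gene, so they are shown first. The sequences are from RefSeq on GRCm38.p6, where all 5 genes had a hairpin and both arms, and the capitals mark the seed, bases 2 to 8.
miR-26a-5p of Mir26a-1 and Mir26a-2: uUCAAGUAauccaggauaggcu
miR-26b-5p of Mir26b: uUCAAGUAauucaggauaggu
miR-101a-3p of Mir101a: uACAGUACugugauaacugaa
miR-101b-3p of Mir101b: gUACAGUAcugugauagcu
Mir26a-1 and Mir26a-2 encode the same miR-26a-5p, identical over 22 of 22 bases. With positions counted from 1 at the 5′ end of miR-26a-5p, miR-26b-5p differs by C11U and C21U and is 1 base shorter, and its seed is the same. Among all 1738 mature entries in the RefSeq table, the seed UCAAGUA was held only by the arms of these 3 genes. The 3p arms of Mir26a-2 and Mir26b share the seed CUGUUCU with mature entries of Mir6932 and Mir7039, whose levels are not described here.

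In RefSeq, miR-101b-3p starts 1 base before miR-101a-3p, so the seeds as annotated are shifted, ACAGUAC in miR-101a-3p and UACAGUA in miR-101b-3p. Over the 18 bases that overlap, they differ only by A16G, counted from the 5′ end of miR-101a-3p. A further annotated gene, Mir101c on chromosome 9, has a mature entry of 19 bases that is contained in miR-101a-3p at bases 2 to 20. Mir101c has no row in the tables used here.

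The hairpins show where the gene rows can and cannot be told apart, with both mature arms in capitals.
Mir26a-1, chr9:119031796-119031885, plus strand: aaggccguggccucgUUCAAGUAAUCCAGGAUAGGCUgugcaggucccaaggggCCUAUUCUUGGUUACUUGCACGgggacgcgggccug
Mir26a-2, chr10:126995530-126995613, plus strand: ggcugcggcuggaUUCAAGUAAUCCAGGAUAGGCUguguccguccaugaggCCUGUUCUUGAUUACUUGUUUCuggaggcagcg
Mir26b, chr1:74394310-74394394, plus strand: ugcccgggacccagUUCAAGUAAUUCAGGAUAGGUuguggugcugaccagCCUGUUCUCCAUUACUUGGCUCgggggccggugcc
Mir101a, chr4:101346945-101347027, minus strand: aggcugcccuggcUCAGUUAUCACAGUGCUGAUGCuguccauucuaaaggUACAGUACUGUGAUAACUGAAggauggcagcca
Mir101b, chr19:29135279-29135375, plus strand: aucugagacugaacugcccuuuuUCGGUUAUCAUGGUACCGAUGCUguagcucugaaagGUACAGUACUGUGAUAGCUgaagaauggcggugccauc
The longest stretch shared by Mir26a-1 and Mir26a-2 is 25 bases and covers the whole 5p arm. Their 3p arms differ at 6 of 22 bases. Mir26b shares at most 11 bases in a row with any other annotated miRNA gene. Mir101a and Mir101b share a stretch of 20 bases, and Mir101a shares 19 with Mir101c.

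The tables count multiply mapped reads in a separate total, and on that ground a gene's row was read as its uniquely mapped reads only. A read of miR-26a-5p has an exact copy in another miRNA gene, and the other 8 arms of the 5 genes have none. The search covered annotated miRNA genes and not the whole genome. The rows of Mir26a-1 and Mir26a-2 can therefore lack reads of the shared 5p arm, and each is a lower limit for its gene. The tables do not separate the arms. How many mismatches the counting allowed between the miR-101 genes is not given in the sources used here.

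**Figure D1:**
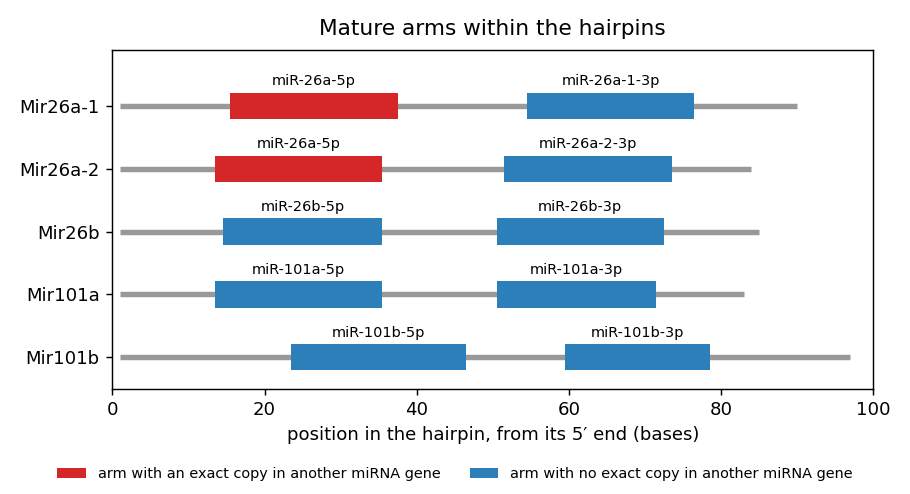
Position of the annotated mature arms in each hairpin, in bases from the hairpin's 5′ end. The red 5p arms of Mir26a-1 and Mir26a-2 are identical, and the blue arms have no exact copy in another annotated miRNA gene.

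On the mm10 assembly, 4 of the 5 hairpins lie in protein-coding genes on the same strand. Mir26b (ENSMUSG00000065468.1) lies in an intron of Ctdsp1, 2801 bases from the start of the gene. Mir26a-1 (ENSMUSG00000065513.1) lies in an intron of Ctdspl. Mir26a-2 (ENSMUSG00000065430.1) lies in an intron of the 1 transcript of Ctdsp2 that spans it, and 1 base of it overlaps an exon of 2 other Ctdsp2 transcripts. Mir101b (ENSMUSG00000065556.1) lies in an intron of Rcl1, a gene of ribosomal RNA processing. Mir101a (ENSMUSG00000065451.1) lies wholly within an exon of the long non-coding RNA E130102H24Rik. The only other miRNA row within 10 kb of any of them was Mir546, 2827 bases from Mir26a-2, with 2 reads in replicate 1 and 0 in replicate 2.

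Replicate 1 held 4532902 own-strand reads on miRNA genes and replicate 2 held 5426081, and levels are given as counts per 1000000 of these reads (CPM). A read covers a mature arm and not the whole row, so CPM is not divided by length, and ratios per base of the row are given beside ratios between genes. Markers of lung tissue were present. The 5 epithelial genes Mir200a, Mir200b, Mir200c, Mir141 and Mir429 averaged between 1123 and 11543 CPM, and the endothelial Mir126a averaged 160649 CPM. The hepatocyte gene Mir122 averaged 49.5 CPM and the cardiac Mir208a and Mir208b 114 and 299 CPM. The 3 neural Mir124a rows were at 0 among reads with a single position. This does not show that their miRNA was absent, as reads mapped to several places are left out. Blood cell miRNAs were present too, at means of 1307 CPM for the myeloid Mir223, 890 CPM for the erythroid Mir451a and 322 CPM for its cluster partner Mir144. Mir451a had 1064 CPM in replicate 1 and 716 CPM in replicate 2, Mir144 had 228 and 415 CPM, and the part of blood in the differences between the libraries was not tested.

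Among reads with a single position, Mir26b was by far the most abundant of the 5 genes. This order leaves out reads mapped to several places, which can belong to the miR-26a genes. Mir26b had 155692 reads in replicate 1 and 222469 in replicate 2, or 34347 and 41000 CPM, with a mean of 37674 ± 4704 CPM (SD, n = 2). The exact Clopper-Pearson 95% intervals of these levels were 34180 to 34515 CPM in replicate 1 and 40833 to 41167 CPM in replicate 2, and they cover counting error only. Replicate 2 was the higher library. Mir26b took 3.43% and 4.10% of all reads on miRNA genes in replicates 1 and 2 and ranked 6 in each.

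Mir26a-1 and Mir26a-2, which encode the other miR-26, were in the lower part of the 308 genes with at least 10 reads in each library. Mir26a-2 had 251 and 315 reads in replicates 1 and 2, or 55.4 and 58.1 CPM, with a mean of 56.7 ± 1.90 CPM (SD, n = 2) and ranks of 193 and 185. Mir26a-1 had 91 and 98 reads, or 20.1 and 18.1 CPM, with a mean of 19.1 ± 1.42 CPM and ranks of 233 and 237. The libraries were close for both genes, and the exact 95% intervals of Mir26a-1 overlapped, at 16.16 to 24.65 CPM in replicate 1 and 14.66 to 22.01 CPM in replicate 2. These are levels of reads with a single position.

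Mir26b exceeded the summed rows of Mir26a-1 and Mir26a-2 by 455-fold in replicate 1 and 539-fold in replicate 2 in CPM, a log2 ratio of 8.95 ± 0.17 (SD, n = 2). Per base of the rows these folds were 458 and 541. Reads of the shared 5p arm are missing from the miR-26a rows if only uniquely mapped reads were counted, so this ratio does not order miR-26a and miR-26b in the lung. It is an upper limit only as far as Mir26b itself lost no reads to other places in the genome, which was not searched. The miR-26a rows together held 342 and 413 reads in replicates 1 and 2, beside 2860715 and 3812820 reads mapped to several places, and the share of miR-26a in the reads mapped to several places was not tested. Among reads with a single position, Mir26a-2 exceeded Mir26a-1 by 2.76-fold in replicate 1 and 3.21-fold in replicate 2 in CPM, or 2.96 and 3.44 per base of the rows. As both rows can lack the shared 5p arm, these folds do not order the genes.

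The miR-101 genes stood between Mir26b and the miR-26a rows. Mir101b had 5463 and 7748 reads in replicates 1 and 2, or 1205 and 1428 CPM, with a mean of 1317 ± 157 CPM (SD, n = 2) and ranks of 73 and 66. Mir101a had 899 and 1168 reads, or 198 and 215 CPM, with a mean of 207 ± 12.0 CPM and ranks of 146 and 144. The higher value of each was in replicate 2, and the ranges of Mir101b and Mir101a over the libraries did not overlap. Mir101b exceeded Mir101a in CPM by 6.08-fold in replicate 1 and 6.63-fold in replicate 2, a log2 ratio of 2.67 ± 0.089 (SD, n = 2). Per base of the rows the folds were 5.20 and 5.68, as the Mir101b row is 97 bases long and that of Mir101a 83. Reads of the miR-101a-3p stretch shared with Mir101c could be among those mapped to several places, which was not tested.

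**Figure D2:**
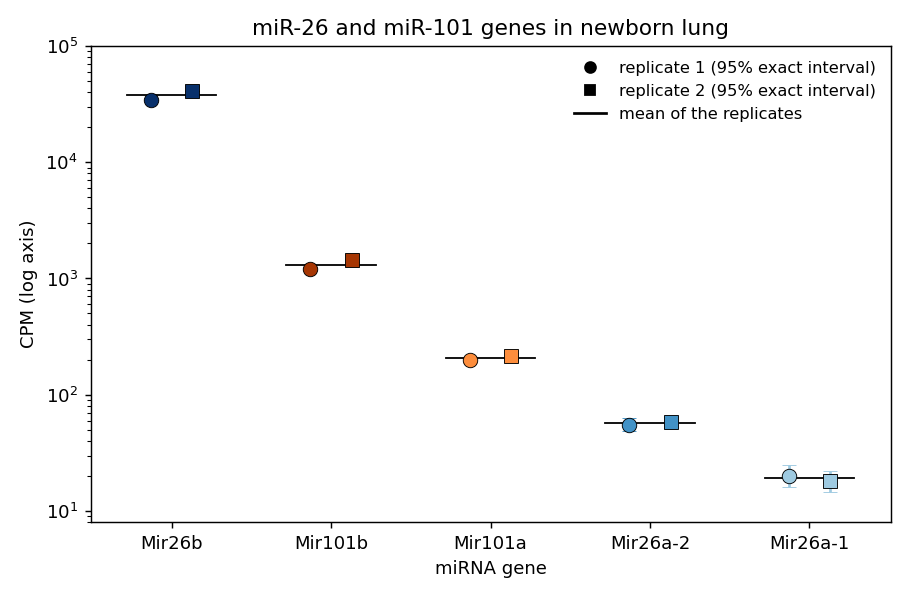
Level of each gene in CPM on a log axis, with circles for replicate 1, squares for replicate 2, exact 95% intervals and a line at the mean. The order Mir26b, Mir101b, Mir101a, Mir26a-2, Mir26a-1 is the same in both libraries, with means between 37674 and 19.1 CPM, and the miR-26a rows leave out reads mapped to several places.

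Together the 5 genes held 162396 reads in replicate 1 and 231798 in replicate 2, which is 3.58% and 4.27% of the reads on miRNA genes. Mir26b made up 95.9% and 96.0% of them in replicates 1 and 2, Mir101b 3.36% and 3.34%, and Mir101a 0.554% and 0.504%. The miR-26 rows exceeded the miR-101 rows by 24.5-fold in replicate 1 and 25.0-fold in replicate 2 in CPM, a log2 ratio of 4.63 ± 0.019 (SD, n = 2), or 27.3 and 27.9 per base of the rows. This ratio rests on Mir26b, and uncounted reads of either family can move it. In both libraries all 5 genes had 0 reads on the opposite strand.

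In the order of all genes by mean log2(CPM + 1), Mir26b lay 0.345 below Mirlet7g and 0.248 above Mir99a, its nearest rows. Above it were Mir335 at 57219 ± 987 CPM and Mirlet7g at 47802 ± 4922 CPM, and below it Mir99a at 31605 ± 951 CPM and Mirlet7i at 29478 ± 97.3 CPM (SD, n = 2). The range of Mir26b over the libraries overlapped with none of these 4, but ranges of 2 libraries do not show that it stands apart. Mir101b lay among Mir342, Mir542, Mir223 and Mir872, which averaged 1378, 1327, 1307 and 1283 CPM, and its range overlapped with all 4. The range of Mir101a overlapped with those of Mirlet7a-1, Mir341, Mir1983 and Mir150, at means of 214, 208, 206 and 195 CPM. The neighbours were picked for their nearness in level, so these overlaps are a description only.

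Mir26a-2 lay between Mir665 and Mir667 above and Mir673 and Mir125b-1 below, with means of 60.6, 62.0, 56.4 and 54.7 CPM, and only the range of Mir665 did not overlap with its own. Mir26a-1 overlapped with Mir412, Mir452 and Mir218-2, at 19.4, 19.3 and 18.8 CPM, but not with Mir449c at 17.1 CPM. These rows are alike in level over 2 libraries only.

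**Figure D3:**
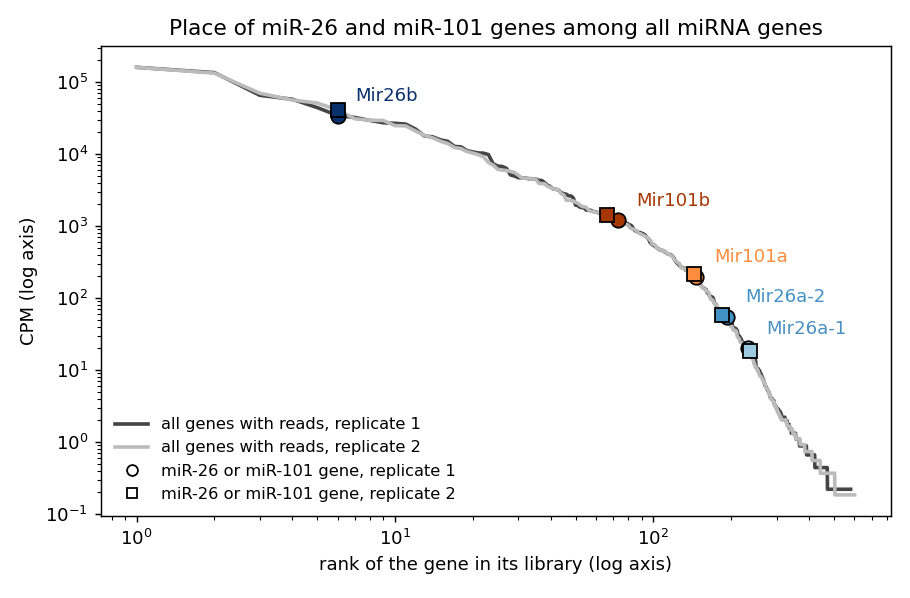
CPM of every miRNA gene with reads against its rank in its library, both on log axes, with replicate 1 in dark grey and replicate 2 in light grey. Mir26b is at rank 6 in both libraries, Mir101b at 73 and 66, Mir101a at 146 and 144, Mir26a-2 at 193 and 185 and Mir26a-1 at 233 and 237.

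How rows with a copied arm stood in the whole table was described for the 916 rows whose annotated arms were found in their GENCODE sequence. Of 103 rows with at least 1 arm that has an exact copy in another miRNA gene, as in Mir26a-1 and Mir26a-2, 3 reached 1000 CPM in both libraries, which is 2.91%. Of 813 rows with no such arm, as in Mir26b and the miR-101 genes, 71 did, which is 8.73%. With every RefSeq mature sequence held by a row counted, and not only those listed under its own name, the shares were 2.83% of 106 rows and 8.77% of 810, and Mir101a was then among the 106 through the entry of Mir101c. The sets differ in more than their copies, and no test was made of this difference.

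The libraries were then compared gene by gene, with the two-sided exact binomial test of each gene's split of reads against the library totals and Benjamini-Hochberg adjustment over 375 genes. This compares the reads of 2 libraries, not conditions. Mir26b and Mir101b passed at an adjusted p under 0.05, both higher in replicate 2, and the other 3 genes did not. Of all genes tested, 42.4% passed, 19.2% higher in replicate 2 and 23.2% higher in replicate 1. All 5 genes had at least 100 reads in the libraries together. Of 251 genes with that many reads, 145 passed when p was adjusted over those 251 alone and not over the 375. Counted in either direction, the 2 of 5 is not above the background. By direction, both were higher in replicate 2, beside 19.2% of all genes tested, and with 5 genes this was not tested. With TMM scaling in place of library totals, 162 genes passed and 61 of them were higher in replicate 1, and with DESeq2's size factors 66 of 159 were, against 87 of 159 with library totals.

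For Mir26b the log2 ratio of replicate 1 to replicate 2 was -0.26, and its p in the exact test was too small to be represented. For Mir101b the log2 ratio was -0.24 with an adjusted p of 4.06e-21 in the same exact test. For Mir101a it was -0.12 (adjusted p = 0.141, exact binomial test), but 0.00935 with TMM scaling and 0.0200 with DESeq2's size factors, at log2 ratios of -0.19 and -0.17. Mir26a-2 and Mir26a-1 had log2 ratios of -0.07 and 0.15 with adjusted p of 0.744 and 0.638 in the exact test, and their low counts allow only large differences to be seen.

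The size of these differences was set beside the spread over other genes. Over the 233 genes that averaged 100 reads or more, the log2 ratio had an SD of 0.26 and a median of 0.01. A larger ratio in size than that of Mir26b was held by 29.2% of those genes, and than that of Mir101b by 30.0%. For Mir101a this share was 63.9%. Many of the 233 genes have far fewer reads than Mir26b, and counting error is larger in them. The 29.2% is therefore not a share at the depth of Mir26b. The rows nearest to Mir26b in level had ratios of 0.04 for Mir335, -0.21 for Mirlet7g, 0.06 for Mir99a and -0.01 for Mirlet7i. All are smaller in size than that of Mir26b, while Mir30e, with 71411 and 66878 reads in replicates 1 and 2, had 0.35. The exact test weighs counting error only, not the spread between pups, and it passes small differences in genes with many reads.

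**Figure D4:**
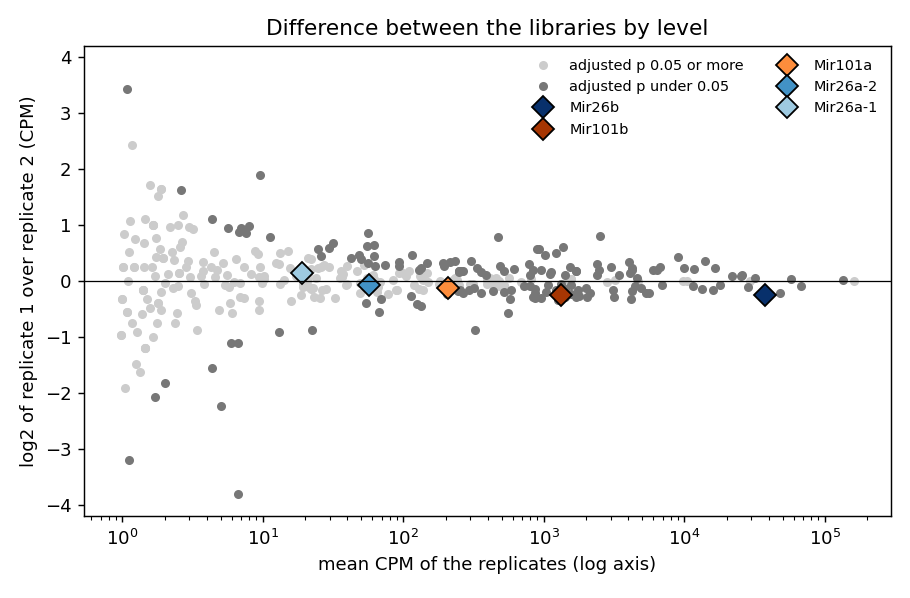
Log2 ratio of replicate 1 to replicate 2 against mean CPM for the 374 tested genes with reads in both libraries, with genes past the exact test in dark grey and the miR-26 and miR-101 genes as diamonds. Mir26b at -0.26 and Mir101b at -0.24 lie below 0, and Mir26a-1 is at 0.15. Mir26b lies further from 0 than the rows nearest to it in level.

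Other miRNAs reported to repress Ezh2 in mouse or human were listed for comparison, with earlier results of these data known. Of the 19 genes in the list, 17 had a row and 14 had at least 10 reads in each library. The 5 miR-26 and miR-101 genes summed to 35826 and 42719 CPM in replicates 1 and 2, and the 17 listed rows to 105275 and 113647 CPM. Most of the sum of the listed rows came from the let-7 family, with means of 47802 CPM for Mirlet7g, 29478 for Mirlet7i and 13414 for Mirlet7d. Only Mirlet7g stood above Mir26b in both libraries. In all, 7 listed rows stood above Mir101b, and all of them but Mir214 are of the let-7 family. Mir214, which represses Ezh2 in mouse muscle cells, averaged 4247 ± 429 CPM, Mir98 of the let-7 family 4248 ± 351 CPM, and Mir137 53.4 ± 3.45 CPM (SD, n = 2). Between the libraries, 9 of 14 tested rows passed the exact test, which is 64.3% beside 42.4% of all genes tested. The sets differ in depth, as each of the 14 rows had at least 100 reads in the libraries together. Among the 251 genes with that many reads, 145 passed, with p adjusted over those 251 alone. Among the 9 listed rows that passed, 5 were higher in replicate 1 and 4 higher in replicate 2, and all but Mir214 are of the let-7 family. The median log2 ratio of the listed rows was 0.12, against 0.03 over all genes tested. The split by direction depended on the scaling, with 3 and 5 rows after TMM and 4 and 5 after DESeq2's size factors. Of 14 listed rows with at least 1 RefSeq arm matched, 6 held a matched arm with an exact copy in another miRNA gene, among them Mir138-1 and Mir138-2. The Mir124a rows had no arm matched, so copies of their arms were not counted. For Mirlet7a-2 the RefSeq table lists 1 arm only, and with every RefSeq mature sequence in the hairpin counted it was added, making 7 of 14. Levels in the list can be too low in the same way as those of the miR-26a rows.

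The label of these miRNAs rests on Ezh2, which small RNA sequencing does not measure, so its 3′ UTR was searched for letters that pair with the seeds. The searched motifs were TACTTGA for miR-26, GTACTGT for miR-101a-3p and TACTGTA for miR-101b-3p as RefSeq annotates it, on the transcript strand only. The motifs for the miR-101 genes overlap by 6 letters. In the longest annotated Ezh2 3′ UTR, 402 bases on the minus strand of chromosome 6, there was 1 match for miR-26, 2 for miR-101a-3p and 1 for miR-101b-3p. They are shown with 10 bases on each side, the match in capitals.
Ezh2 miR-101a-3p match at base 59 of the UTR, chr6:47530466-47530492: ggaaccttgaGTACTGTgggcaattta
Ezh2 miR-101a-3p match at base 114, chr6:47530411-47530437: aatttgcaaaGTACTGTaacagtaatt
Ezh2 miR-26 match at base 248, chr6:47530277-47530303: gaataaagaaTACTTGAacttgttgtt
The match for miR-101b-3p starts at base 115 and is the one at base 114 read 1 base further on. The matches at bases 114 and 248 are followed by A, the letter favoured opposite the first base of a miRNA, and the match at base 59 is not.

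Of 15188 mouse 3′ UTRs of at least that length, 2.88% held the miR-26 motif in their first 402 bases, 2.71% the miR-101a-3p motif and 3.36% the miR-101b-3p motif. Over whole 3′ UTRs of any length, these shares were 9.67%, 9.34% and 12.1% of 20968 genes. Among 11 PRC2 genes, 3 held a miR-26 match and 4 a miR-101a-3p match, and Ezh2 alone held both. Besides Ezh2, a miR-26 match was in Suz12, a core subunit, and Jarid2, an accessory subunit that guides the complex to chromatin. A miR-101a-3p match was in Eed, the subunit that binds the methylated histone, in Rbbp7, a histone-binding subunit, and in Aebp2, an accessory subunit, with 2 matches. The paralog Ezh1, Rbbp4 and the Polycomb-like genes Phf1, Mtf2 and Phf19 held none of the 3 motifs. Of the 3 Ctdsp host genes, Ctdsp2 held 1 miR-26 match and no other, Ctdspl held 1 miR-101b-3p match and Ctdsp1 held none. A match is a run of letters, not a shown site, and these data hold no level of any target.

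**Figure D5:**
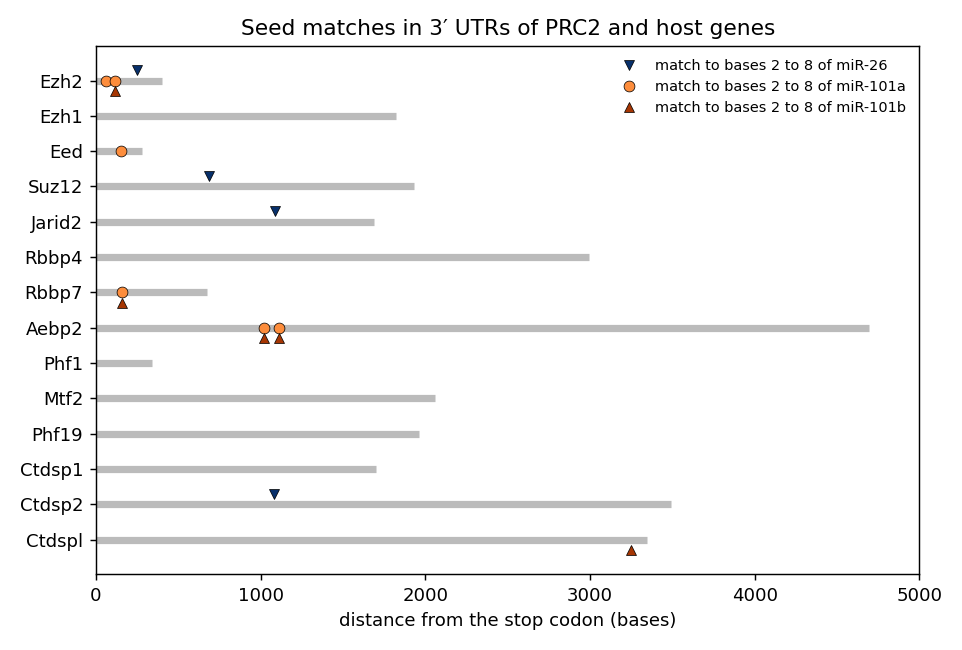
Longest annotated 3′ UTR of 11 PRC2 genes and the 3 Ctdsp host genes as bars, in bases from the stop codon, with matches to the seed of miR-26 above the bar, of miR-101a-3p on it and of miR-101b-3p below it. Ezh2 holds matches to all 3 within 402 bases, and Ezh1, Rbbp4, Phf1, Mtf2, Phf19 and Ctdsp1 hold none.

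The hairpins were also compared by predicted fold. The miR-26 hairpins had GC contents of 60.0% for Mir26a-1, 53.6% for Mir26a-2 and 58.8% for Mir26b, with predicted minimum folding energies of -49.4, -44.5 and -43.5 kcal/mol. The miR-101 hairpins had GC contents of 49.4% for Mir101a and 47.4% for Mir101b and energies of -47.0 and -39.6 kcal/mol. The order of these values was not that of the levels, and no relation between them was tested over 5 genes.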

How the data were processed

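Small RNA from newborn mouse lung was sequenced in 2 libraries. The authors deposited 1 table of raw read counts per library, with mm10 as assembly and GENCODE M4 as annotation, per the text deposited with them. The sources used here name no aligner, counting program or filter. Every table has 3 count columns and for each gene the first equals the other columns added together. Column 3, with 98.2% and 98.0% of the reads on miRNA genes, was read as the own strand. Totals leave out 4 rows without a gene. Replicate 1 had 8277063 reads in all and replicate 2 had 10391718, of which 34.6% and 36.7% were multiply mapped, 8.49% and 8.69% unmapped, and 2.18% and 2.41% on no feature. A chi-square over 375 genes of 75.2 for each degree of freedom showed more than sampling noise between the libraries, and they were counted separately. Nothing but the labels says that they came from different pups.

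Symbols and positions were taken from GENCODE M21 on the same assembly, which matched 1894 of 1973 identifiers, and arms from RefSeq. Splits of reads were tested for genes with 10 or more reads summed over both libraries, with SciPy 1.17.1, after a check on simulated data. The simulation held counting noise only, so it says nothing on the further spread between the libraries. The floor for a count of 0, set at 3 reads, was 0.662 (replicate 1) or 0.553 (replicate 2) CPM, for genes whose reads have a single position. TMM factors came from edgeR 4.0.16, size factors from DESeq2 1.42.0 and folding energies from RNAfold 2.7.2. With 1 library on each side, edgeR's quasi-likelihood test was not run. The 3′ UTR was the longest of a gene's basic protein-coding transcripts. Named were the 5 genes, the 2 rows next above and below each in level, rows that share the seed of miR-26-5p or miR-101-3p or lie within 10 kb, and the listed genes. The genes and lists were chosen with earlier results of these data known.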

Additional observations from a re-analysis of the deposited data

How the results depend on the processing

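No paired analysis was possible because the libraries form 1 group. The ratios between the genes had the same direction in each library, and leaving out 1 library only returns the ratio of the other. The either-strand column could not change these ratios, as all 5 genes had 0 reads on the opposite strand. Division by row length could not reverse them either, as the rows are between 83 and 97 bases long. Per base of the rows, the log2 ratio of Mir101b to Mir101a was 2.44 in place of 2.67, and that of the miR-26 rows to the miR-101 rows 4.79 in place of 4.63, which follows from the lengths of the rows. With 1 library left out at a time, the log2 ratio of Mir26b to the miR-26a rows ranged from 8.83 to 9.07, that of Mir101b to Mir101a from 2.60 to 2.73 and that of the miR-26 rows to the miR-101 rows from 4.62 to 4.64. The number of genes past the exact binomial test was 159, and between 145 and 165 under the either-strand column, TMM, DESeq2's size factors, no filter and a filter of 100 reads. Levels of all 5 genes moved by less than their SD under the either-strand column, TMM and DESeq2's size factors, and by more when scaled to all reads of a library, where Mir26b was at 20109 and Mir101b at 703 in place of 37674 and 1317 CPM. With 2 libraries, leaving out 1 moves a mean by less than the SD by construction and shows no stability. Counts of listed rows past the test under other scalings, and of rows holding any copied mature sequence, were chosen after seeing the data. The reads of Mir26a-1 and Mir26a-2 mapped to several places limit every statement on miR-26a.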
